A study of Mus musculus with 6 samples.

Results

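Collagen chains were examined in 3T3-L1, a line of mouse fibroblasts that serves as a model of fat cell formation. The members were all probe sets that the platform annotation assigns to exactly 1 gene with a symbol of the form Col, number, a, number. A probe set is the group of short probes that together give 1 signal. The members were 82 of 45101 probe sets on the array, and they stood for 42 genes among 18193 with a probe set of their own. By the structure their proteins form, 11 genes were fibrillar, 6 belonged to the basement membrane collagen, 5 to the beaded filament collagen and 20 to other types. The series holds 3 arrays of untreated control cultures and 3 arrays of cultures given resveratrol, a plant polyphenol. The labels name no dose, duration, vehicle or state of differentiation, and no genotype beyond the line, which is a single cell line grown in culture. In control cultures the fat cell genes Fabp4 and Adipoq had mean intensities of 11745 and 8620, and the preadipocyte gene Dlk1 had 3854. The share of differentiated cells was not tested. Nothing says whether the cultures of a group were grown on separate occasions, so a p-value measures the spread between these 3 cultures, which may be technical.

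Each collagen molecule is a triple helix of 3 alpha chains, each encoded by a gene of this family. Fibrillar collagens assemble into the cross-banded fibrils that give connective tissue its strength, while type IV forms the sheet-like network of basement membranes and type VI forms beaded microfilaments. Adipocytes sit in a basement membrane of their own, and fibroblasts and preadipocytes are known as strong producers of types I, III, V and VI. Newly made chains are hydroxylated and folded in the endoplasmic reticulum, and the secreted molecules are then trimmed and cross-linked outside the cell.

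Resveratrol cultures had lower signals for a part of the family, most clearly for Col18a1 and for 1 of 2 probe sets of Col3a1. Col18a1, the chain of type XVIII whose C-terminal fragment is endostatin, fell by 0.53 on the log2 scale, and a probe set of Col3a1, the chain of type III that is built into fibrils beside type I, fell by 0.58. The brighter probe set of Col3a1 had -0.29 and did not pass the test. Col15a1, Col27a1 and Col5a3 fell by 0.37, 0.34 and 0.32, and a dim probe set of Col20a1 fell by 0.59. These 4 calls were less stable, lost in 6, 8 and 10 of 18 alternative settings and, for Col20a1, in 8 of 17. No tested collagen probe set rose. The chains of type VI and of type IV had differences that did not pass the test.

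The upstream sequences of the genes that fell through probe sets with a mean intensity above 100 are shown because these genes moved in the same direction. They are the 150 bases that end just before a RefSeq start site (build GRCm38.p6), read 5′ to 3′ on the strand of the gene, and Col18a1 has 2 start sites. Capitals mark matches on either strand to the CCAAT box (searched as CCAAT), the core of a GC box (searched as GGGCGG) and the core of a TATA box (searched as TATAAA).
Col3a1, chr1:45311388-45311537, plus strand: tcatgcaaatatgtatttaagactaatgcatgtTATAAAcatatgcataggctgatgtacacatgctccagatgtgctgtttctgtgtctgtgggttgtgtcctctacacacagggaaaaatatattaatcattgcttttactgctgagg
Col5a3, chr9:20815068-20815217, minus strand: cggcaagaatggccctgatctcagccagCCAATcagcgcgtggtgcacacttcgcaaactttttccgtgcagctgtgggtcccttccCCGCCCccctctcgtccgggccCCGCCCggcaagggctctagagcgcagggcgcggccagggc
Col15a1, chr4:47207862-47208011, plus strand: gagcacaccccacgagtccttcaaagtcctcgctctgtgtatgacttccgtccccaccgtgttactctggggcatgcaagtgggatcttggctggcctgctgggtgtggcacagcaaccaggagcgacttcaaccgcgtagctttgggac
Col18a1, chr10:77113706-77113855, minus strand: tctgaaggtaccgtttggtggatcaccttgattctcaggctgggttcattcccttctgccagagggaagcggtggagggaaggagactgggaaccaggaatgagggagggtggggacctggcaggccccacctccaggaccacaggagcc
Col18a1, chr10:77166531-77166680, minus strand: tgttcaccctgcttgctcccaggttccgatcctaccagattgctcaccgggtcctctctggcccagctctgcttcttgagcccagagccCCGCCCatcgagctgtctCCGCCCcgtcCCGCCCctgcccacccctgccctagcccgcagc
Col27a1, chr4:63215262-63215411, plus strand: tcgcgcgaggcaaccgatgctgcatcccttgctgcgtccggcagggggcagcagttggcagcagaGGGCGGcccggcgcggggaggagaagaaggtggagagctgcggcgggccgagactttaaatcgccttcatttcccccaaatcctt

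No motif was common to these 6 windows. GGGCGG was found in 3 of them, CCAAT in the window of Col5a3 and TATAAA in that of Col3a1, and the windows of Col15a1 and of 1 Col18a1 start site held none of the motifs. Over the 36 windows found for 33 collagen genes, 50% held GGGCGG, 22.2% CCAAT and 11.1% TATAAA. Over all 32817 windows of the same length the shares were 28.6%, 24.5% and 7.58%. These are letter matches, and the array carries no measurement of factor binding.

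Signals are given as intensities, the deposited linear values. A difference is resveratrol minus control on the scale of log2(intensity + 16), which understates changes of dim probe sets. The test was limma's moderated test over 27022 probe sets, the 60% with the highest average signal, with Benjamini-Hochberg adjustment over all of them and a threshold of 0.05. In that fit 8.17% of probe sets changed, 4.22% lower and 3.95% higher. Of the 82 collagen probe sets, 45 were bright enough to be tested, and they stood for 27 of the 42 genes.

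Of these 45 probe sets, 7 fell and 0 rose, against 4.22% lower over all probe sets tested. An unadjusted p under 0.05 was found for 17, against 21.7% of all probe sets tested. The share lower varied with mean intensity. Over all probe sets tested it was 1.41% below 100, 5.32% from 100 to 400 and 8.56% from 400 to 1000. From 1000 to 4000 it was 11.1%, and from 4000 it was 6.8%. Falls among collagen probe sets in these ranges were 1 of 14, 2 of 7, 3 of 7, 1 of 6 and 0 of 11. Differences lay below 0 for 39 of the 45, where 48.1% of all tested probe sets lay below 0, with no test of that share. The median difference was -0.19 over the collagen probe sets and 0.01 over all probe sets tested. The 3 treated arrays lay wholly below the 3 control arrays for 14 collagen probe sets and wholly above for 0, against 12.6% and 13.8% over all probe sets tested. The count of falls was 2 without control replicate 2 or without resveratrol replicate 1, 3 without resveratrol replicate 2 or 3, and 5 without control replicate 1 or 3.

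**Figure D1:**
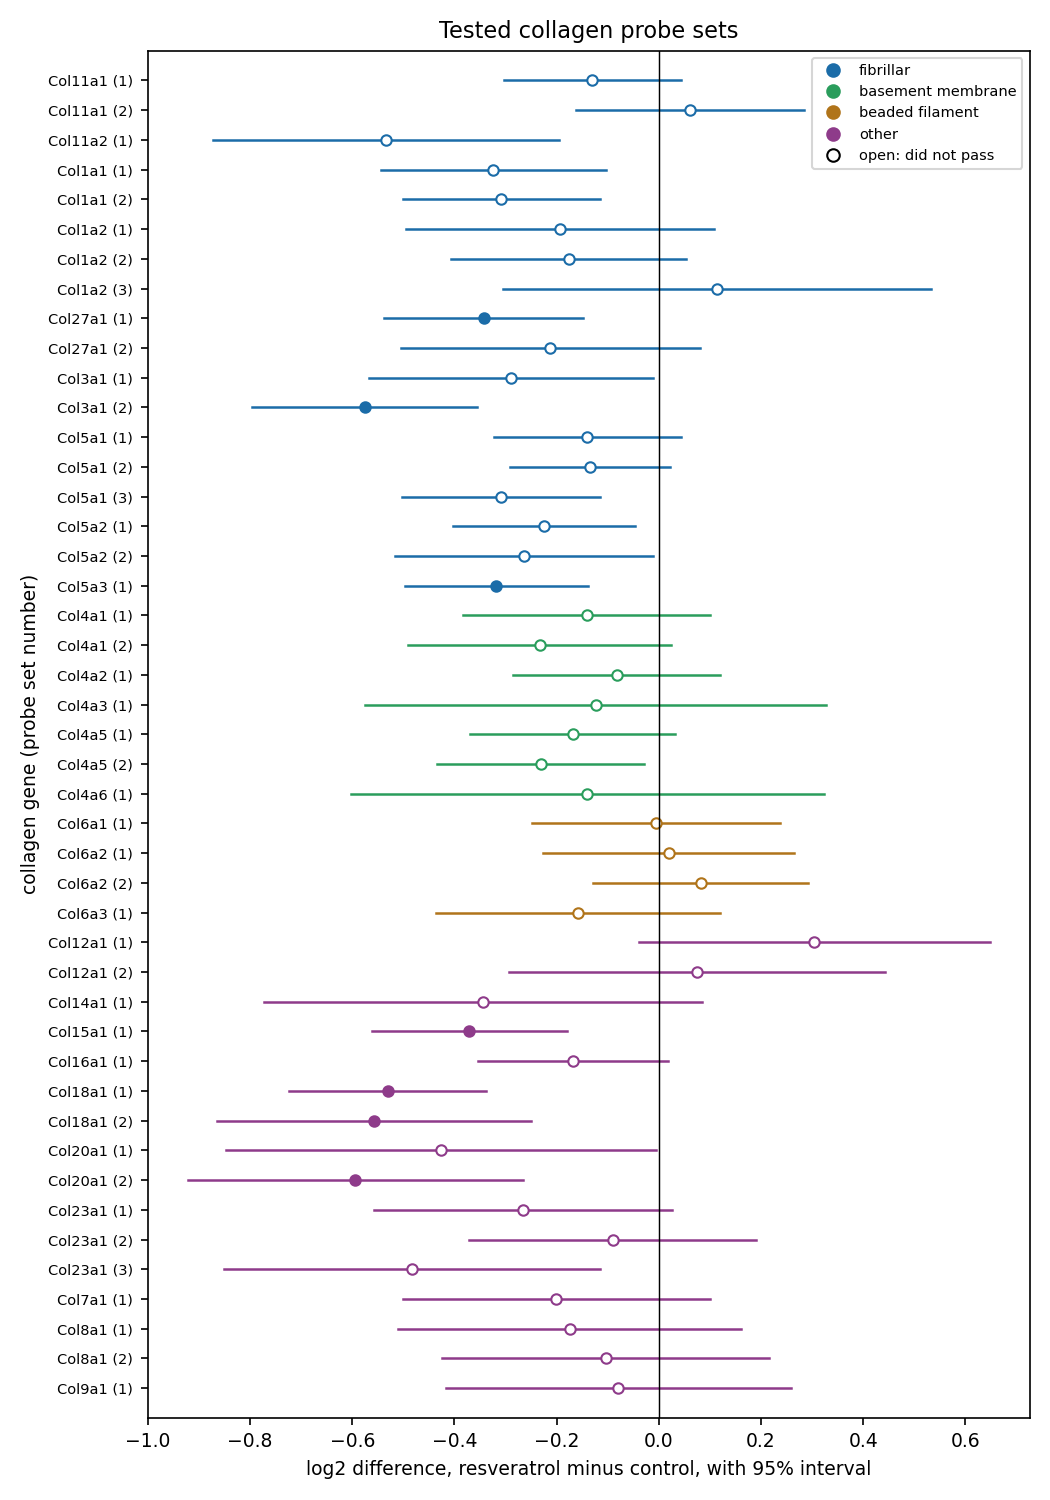
The log2 difference (resveratrol minus control) of each of the 45 tested collagen probe sets is plotted as a point with its 95% interval, coloured by structural class, with filled points for the 7 that passed the test. All filled points lie left of 0, between -0.59 and -0.32, and the beaded filament chains lie around 0.

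With each gene represented by its brightest probe set, 4 of 27 tested collagen genes fell and 0 rose, where 5.21% of 12630 tested genes fell and 5.32% rose. The 4 were Col5a3, Col27a1, Col15a1 and Col18a1. The median difference was -0.17 over the 27 genes and 0.02 over all genes tested. Differences lay below 0 for 25 of the 27 genes, where 46.3% of all tested genes lay below 0. The groups lay apart for 7 of the 27, all of them lower, against 13.7% lower and 30.2% in either direction over all genes tested. Of the 15 collagen genes with more than 1 tested probe set, 3 had probe sets with different calls and 2 had probe sets of both signs. Averaging the probe sets of a gene gave 7 falls: Col27a1 was no longer among them (adjusted p = 0.072), and Col1a1, Col3a1, Col11a2 and Col20a1 were, with adjusted p = 0.0442, 0.00635, 0.033 and 0.0211.

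**Figure D2:**
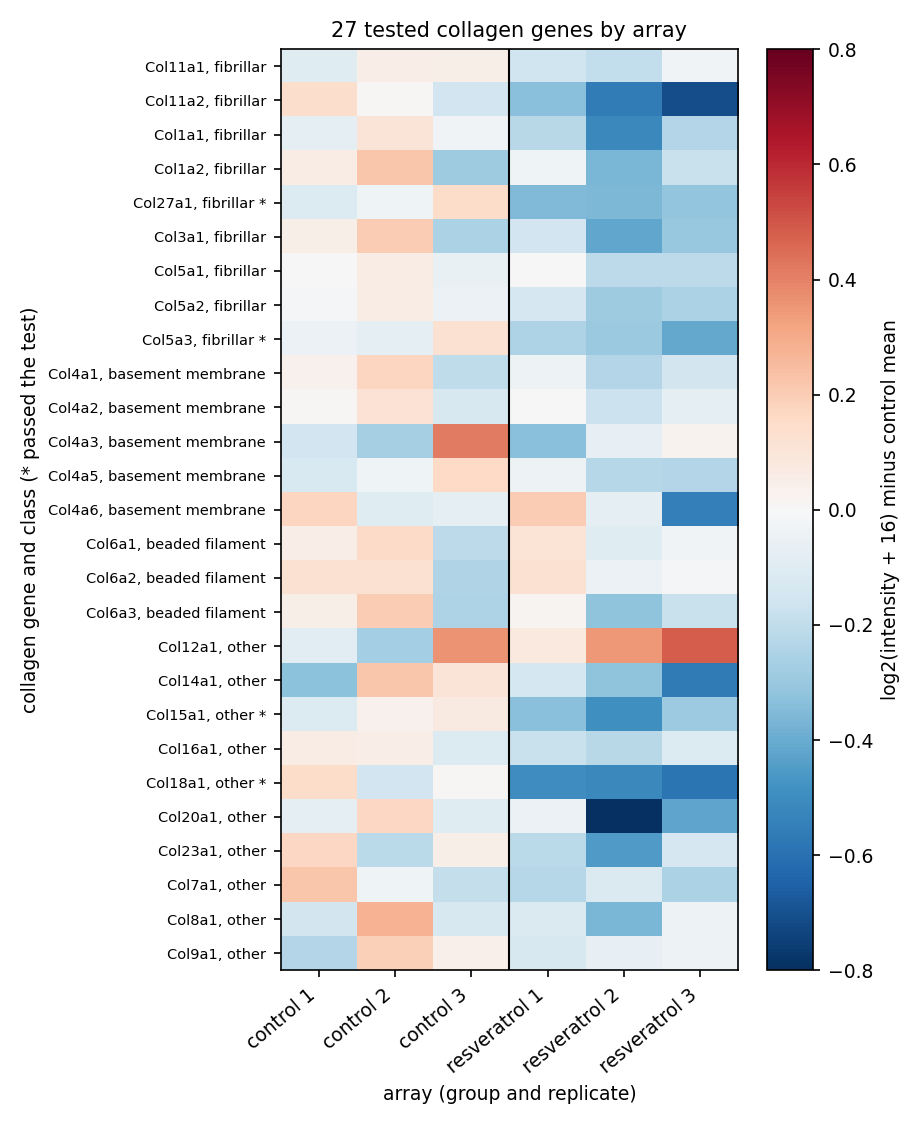
Each cell shows log2(intensity + 16) of a tested collagen gene on an array minus the mean of the 3 control arrays, for the brightest probe set of each gene, with an asterisk at the 4 genes that passed. Colours stop at 0.8, a limit that 1 cell exceeds. The median over the 27 genes was -0.13, -0.29 and -0.21 on resveratrol replicates 1, 2 and 3.

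The arrays differed in the signal of the spiked-in hybridisation controls, which carry no cell RNA. Their mean log2 signal over 18 probe sets was 11.01, 11.03 and 10.74 on control replicates 1 and 2 and resveratrol replicate 1, and 10.01 to 10.29 on the other 3 arrays. Each set of 3 arrays holds both groups, so every difference was also taken within each set. Each set has a group with 1 array, so these values carry no test, and a probe set whose groups lie apart has the same sign in both by construction. Among all 353 tested probe sets with a mean intensity of 4000 or more, the median difference was -0.09, with -0.08 within the arrays of brighter spikes and 0.10 within those of dimmer spikes. For the 11 collagen probe sets of that brightness it was -0.16, -0.14 and -0.00. Of those 11, 9 had their highest value on control replicate 2, an array of brighter spikes. The part of this signal difference in the values of bright collagen probe sets was not tested.

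**Figure D3:**
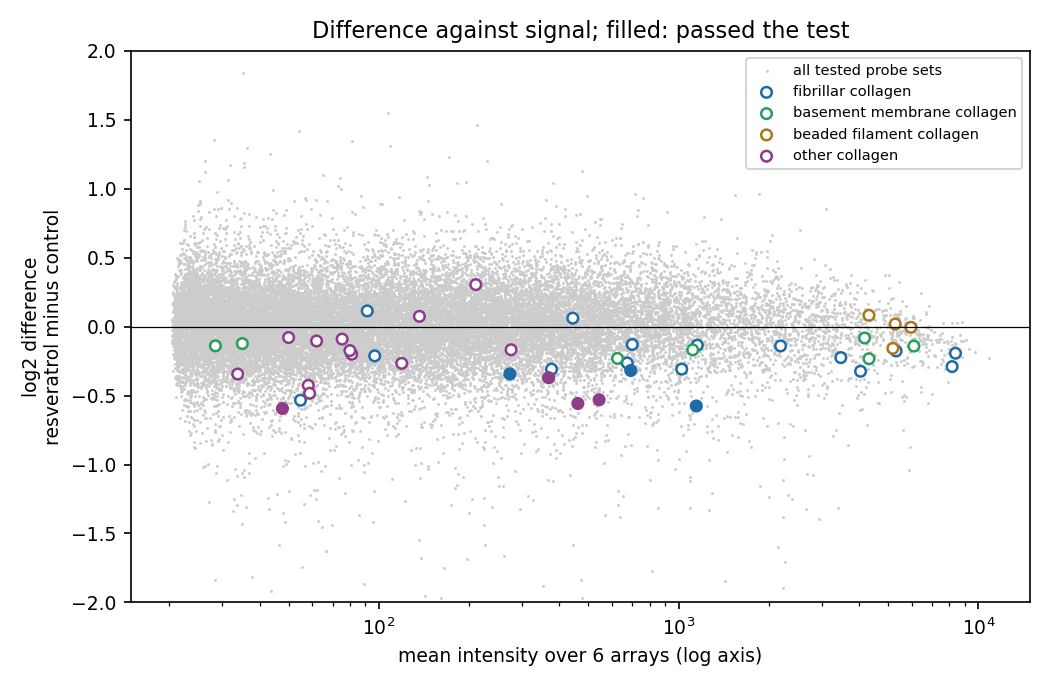
The log2 difference is plotted against the mean intensity over all 6 arrays (log axis) for all tested probe sets in grey and for collagens by class, with filled points for those that passed. The 11 probe sets with a difference beyond 2 in size lie outside the plot. All 7 filled collagen points lie below a mean intensity of 4000, where the 11 brightest collagen points begin.

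The fibrillar collagens make up the bulk of the extracellular fibrils. Of 21 fibrillar probe sets 18 were tested, and 3 fell, those of Col3a1, Col5a3 and Col27a1, against 4.22% of all probe sets tested. By the brightest probe set of each gene, 2 of 9 tested genes fell, against 5.21% of all genes tested. Of these differences 9 of 9 were below 0, against 46.3% of all genes tested, with a median of -0.29.

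Type I, the main collagen of skin, bone and tendon, is built from Col1a1 and Col1a2 chains. Probe set 1 of Col1a1 (probe sets are numbered by mean signal) read 4261, 4816 and 4397 on the control arrays and 3842, 3132 and 3812 on the resveratrol arrays. Its probe set 2 read 1117, 1223 and 1061 and then 958, 819 and 963. In both probe sets all treated arrays lay below all control arrays. The differences were -0.32 ± 0.10 (SE) and -0.31 ± 0.09, with adjusted p = 0.0757 and 0.054, so Col1a1 did not pass. Over the 17 alternatives at the level of probe sets, adjusted p of the brighter probe set 1 ran from 0.0579 to 0.301, so it never passed. For probe set 2 the range was 0.0339 to 0.213. Probe set 2 passed with quantile normalization (adjusted p = 0.0483), the brightest 40% of probe sets (0.0339), array weights (0.0404) and a robust variance model (0.0476). It also passed without probe sets that may cross-hybridise (0.0496) and without control replicate 3 (0.0482).

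Col1a2 read 9251, 10357 and 7301 in control and 8662, 6878 and 7848 in resveratrol cultures with its brightest probe set. The groups overlapped, since control replicate 3 lay below 2 of the treated arrays. The difference was -0.19 with a 95% interval from -0.49 to 0.11 (adjusted p = 0.472). Its probe set 2 read 5722, 6179 and 5019 and then 5405, 4525 and 5020, again with overlap, at -0.18 (adjusted p = 0.375). A dim probe set, number 3, at 86.0 ± 12.6 (SD, n = 3) in control cultures, had 0.11 and did not pass. The difference of the brightest probe set was -0.18 within the arrays of brighter spikes and 0.01 within those of dimmer spikes.

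Col3a1 encodes the single chain of type III, found with type I in skin, vessels and soft tissue. Its probe set 2 (1427884_at) read 1228, 1312 and 1588 in control and 925, 843 and 973 in resveratrol cultures. Every treated array lay below every control array. The signal fell from 1376 ± 188 to 914 ± 65.8 (SD, n = 3), a log2 difference of -0.58 ± 0.10 (SE) with adjusted p = 0.00534. The brighter probe set 1, at 9246, 10303 and 7486 against 8030, 6707 and 7235, had overlapping groups, a difference of -0.29 and adjusted p = 0.209. The call of probe set 2 held in 17 of 18 alternatives, with adjusted p from 0.00288 to 0.0525, and was lost without an intensity trend. Probe set 1 passed without control replicate 3.

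Type V starts fibrils and limits their width, with Col5a1, Col5a2 and the less widespread Col5a3 as its chains. Col5a3 (1419703_at) read 744, 728 and 838 in control and 644, 624 and 574 in resveratrol cultures, with no overlap. It fell from 770 ± 59.4 to 614 ± 36.0 (SD, n = 3), a log2 difference of -0.32 ± 0.08 (SE) with adjusted p = 0.0362. The call was lost in 10 of 18 alternatives, among them leaving out each of the 6 arrays in turn, the replicate number as a block (adjusted p = 0.0648) and the spike-signal split as a block (0.0514). Adjusted p ran from 0.0219 to 0.136 over all 18.

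Col5a2 and Col5a1 had differences of like sign that did not pass. Col5a2 read 3714, 3893 and 3625 in control and 3407, 3064 and 3139 in treated cultures, without overlap, at -0.22 (adjusted p = 0.124). It passed with quantile normalization. Its second probe set had -0.26, and the groups overlapped. The 3 probe sets of Col5a1 had -0.14, -0.13 and -0.31, the last with adjusted p = 0.0555, which passed with the brightest 40% of probe sets (0.0374, in a range from 0.0374 to 0.205 over 17 alternatives). The groups lay apart in probe sets 2 and 3 of Col5a1 and overlapped in the brightest.

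Type XI shares its fold with type V and is known from cartilage, where it is built into type II fibrils. Col11a2 read 75.9, 67.9 and 59.0 in control and 50, 40.6 and 35 in resveratrol cultures. These dim groups did not overlap, and the difference was -0.53 ± 0.15 (SE) with adjusted p = 0.0576. Col11a1 had -0.13 and 0.06 in its probe sets, with overlapping groups in both.

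Col27a1, a fibrillar chain known from cartilage, read 284, 299 and 341 in control and 237, 236 and 243 in resveratrol cultures with its brighter probe set (1453191_at). It fell from 308 ± 29.5 to 239 ± 4.16 (SD, n = 3), with no overlap, a log2 difference of -0.34 ± 0.09 (SE) and adjusted p = 0.0379. The other probe set had -0.21 (adjusted p = 0.405) and overlapping groups. The call was lost in 8 of 18 alternatives, among them leaving out control replicates 2 or 3 or any of the treated arrays, with adjusted p from 0.0275 to 0.117 over all 18. Col2a1, the chain of the main cartilage collagen, and Col24a1 were too dim to be tested.

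The basement membrane collagen, type IV, had no call. Of 12 probe sets 7 were tested and 0 passed, against 8.17% of all probe sets tested. Of these differences 7 of 7 lay below 0, against 48.1% of all probe sets tested, and their median was -0.14. Col4a1 and Col4a2, which together form the type IV molecule found in nearly all basement membranes, lie next to each other on opposite strands of chromosome 8. Col4a1 read 6507, 7175 and 5523 in control and 6182, 5400 and 5755 in resveratrol cultures. Col4a2 read 4305, 4647 and 3925 and then 4298, 3792 and 4055. A second probe set of Col4a1 read 4568, 5358 and 4075 and then 4323, 3470 and 4087, with -0.23 (adjusted p = 0.283). The groups overlapped for all 3 probe sets. The brightest probe sets had -0.14 for Col4a1 (95% interval -0.38 to 0.10, adjusted p = 0.522) and -0.08 for Col4a2 (-0.29 to 0.12, adjusted p = 0.682).

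Within the arrays of brighter spikes these differences were -0.14 for Col4a1 and -0.06 for Col4a2. Within those of dimmer spikes they were 0.01 and -0.00. Col4a5, an X-linked chain best known from the kidney, read 1079, 1147 and 1316 in control and 1142, 1003 and 996 in treated cultures. The treated arrays reached into the range of the controls, and the difference was -0.17 (adjusted p = 0.322). Its probe set 2 had -0.23 (adjusted p = 0.166) and passed without control replicate 1. The tested probe sets of Col4a3 and Col4a6, chains of restricted basement membranes, read from 15.5 to 54.0 over all arrays, with differences of -0.12 and -0.14. Col4a4 was too dim to be tested.

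The beaded filament collagen, type VI, is a major part of the matrix around fat cells. Of 7 probe sets 4 were tested and 0 passed, against 8.17% of all probe sets tested. An unadjusted p under 0.05 was found for 0 of them, against 21.7% of all probe sets tested. Col6a1 read 6168, 6623 and 5135 in control and 6402, 5558 and 5831 in resveratrol cultures. Col6a2 read 5677, 5671 and 4419 and then 5692, 5042 and 5158. Col6a3, the chain whose cleaved end is the fragment endotrophin, read 5611, 6242 and 4571 and then 5515, 4350 and 4802. The treated arrays of Col6a1 lay within the range of the controls, and those of Col6a2 and Col6a3 overlapped that range.

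The differences were -0.01 for Col6a1 (95% interval -0.25 to 0.24), 0.02 for Col6a2 (-0.23 to 0.26) and -0.16 for Col6a3 (-0.44 to 0.12). Their adjusted p were 0.987, 0.95 and 0.536. The second tested probe set of Col6a2 had 0.08 (adjusted p = 0.696). The interval of Col6a3 includes the differences called for Col27a1 and Col5a3, so a missed threshold does not show equal levels. Col6a4 and Col6a5 were too dim to be tested.

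The other collagens include the multiplexins of the basement membrane zone, the fibril-associated collagens, the transmembrane collagens and the short-chain network formers. Of 42 probe sets 16 were tested, and 4 fell, of Col15a1, Col18a1 (both of its probe sets) and Col20a1, against 4.22% of all probe sets tested. By brightest probe set 2 of 10 tested genes fell, against 5.21% of all genes tested.

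Col18a1 and Col15a1 are the multiplexins, which link basement membranes to the tissue beneath. Col18a1 read 713, 575 and 647 in control and 452, 445 and 424 in resveratrol cultures with its brighter probe set (1418237_s_at). Its probe set 2 (1426955_at) read 619, 526 and 502 and then 333, 474 and 311. In both probe sets all treated arrays lay below all controls, and treated replicate 2 of probe set 2 came nearest to them.

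The brighter probe set of Col18a1 fell from 645 ± 68.9 to 440 ± 14.7 (SD, n = 3), a log2 difference of -0.53 ± 0.09 (SE) with adjusted p = 0.00401, and this call held in all 17 alternatives run for it, with adjusted p from 0.00214 to 0.0422. It may cross-hybridise by its suffix, and probe set 2, which has no such suffix, fell by 0.56 ± 0.14 with adjusted p = 0.033. The call of probe set 2 was lost in 7 of 18 alternatives, among them leaving out control replicates 1 or 2 or resveratrol replicates 1 or 3 and the spike-signal split as a block (adjusted p = 0.0594), with adjusted p from 0.00405 to 0.123 over all 18. The brighter probe set had -0.49 within the arrays of brighter spikes and -0.56 within those of dimmer spikes.

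Col15a1 (1448755_at) read 385, 427 and 439 in control and 327, 292 and 338 in resveratrol cultures. The groups did not overlap, and the signal fell from 417 ± 28.5 to 319 ± 24.0 (SD, n = 3). The log2 difference was -0.37 ± 0.09 (SE) with adjusted p = 0.0248. The call was lost in 6 of 18 alternatives, among them leaving out control replicates 2 or 3 or resveratrol replicates 1 or 2, with adjusted p from 0.0142 to 0.104 over all 18.

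**Figure D4:**
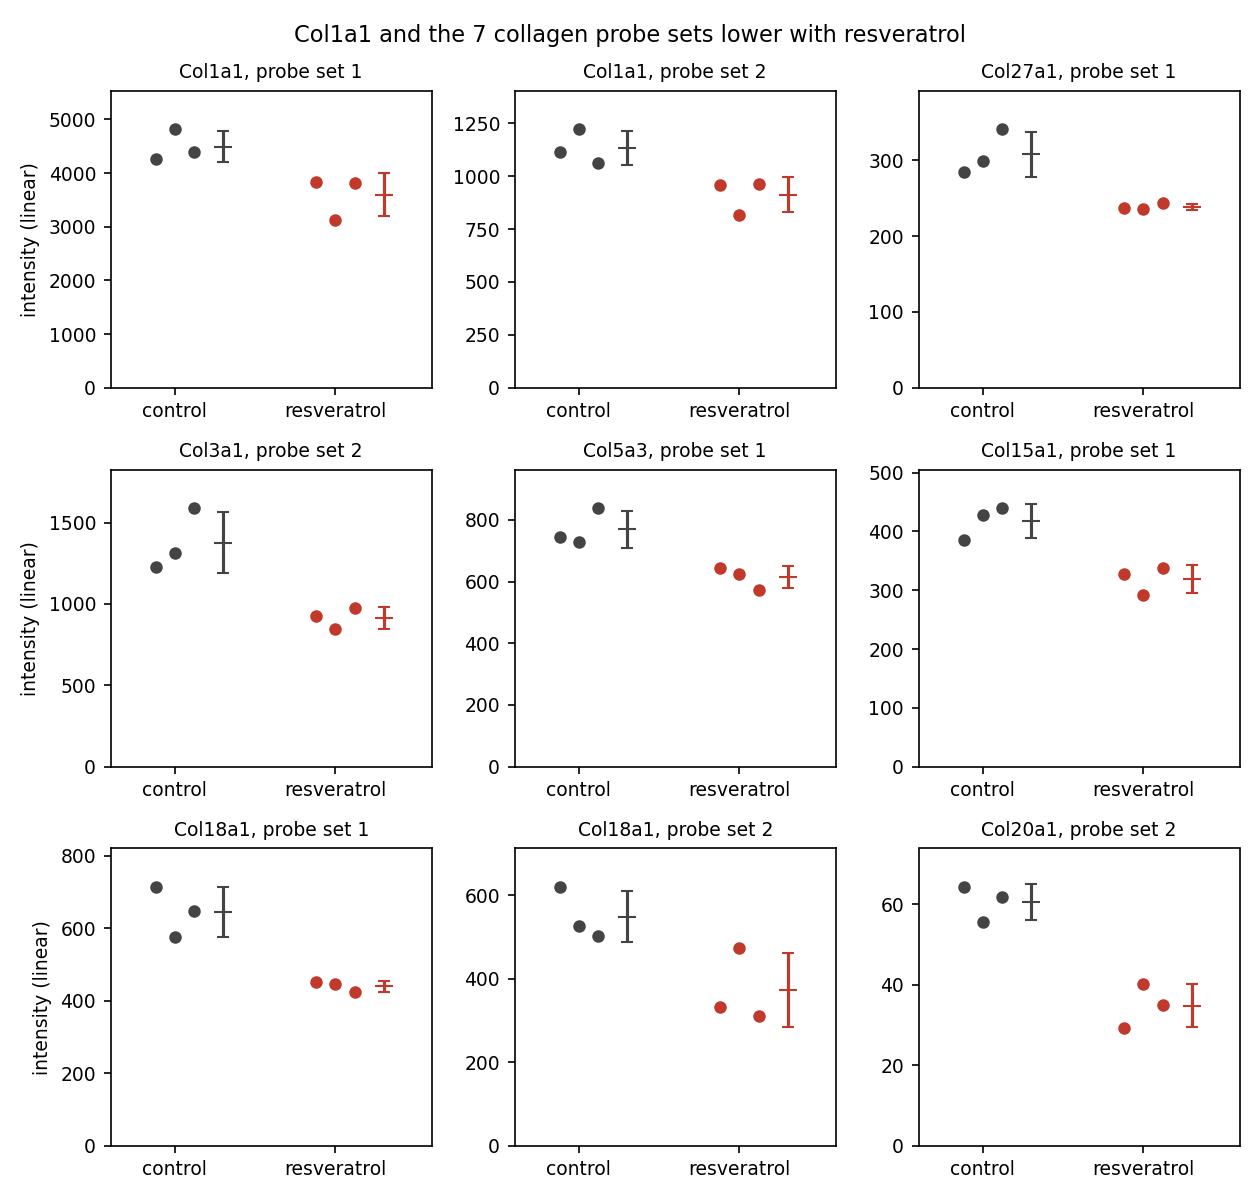
Each panel shows the intensity of a probe set on the 3 control and 3 resveratrol arrays as points, with the mean and SD at the side, on a linear axis from 0. The 7 probe sets that fell are shown with both probe sets of Col1a1, which did not pass although their groups lie apart.

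Among fibril-associated collagens, Col20a1 fell through its dimmer tested probe set (1425234_at), at 64.2, 55.5 and 61.7 in control and 29.3, 40.1 and 35 in treated cultures. The difference was -0.59 ± 0.15 (SE) with adjusted p = 0.0335. The groups lay apart, but its other tested probe set had overlapping groups and did not pass (-0.43, adjusted p = 0.223). The call was lost in 8 of 17 alternatives. These were leaving out each of the 6 arrays in turn (adjusted p from 0.0569 to 0.116), the replicate number as a block (0.0637) and no filter (0.0928). Adjusted p ran from 0.0211, with the mean of the gene's probe sets, to 0.116. Col12a1, which decorates the surface of type I fibrils, read 172, 150 and 241 in control and 196, 239 and 264 in resveratrol cultures, at 0.30 (adjusted p = 0.294). This was the highest difference among the 45 tested collagen probe sets. A second tested probe set of Col12a1 had 0.07 (adjusted p = 0.857) and overlapping groups. Col14a1 and Col16a1 had -0.34 and -0.17, and Col9a1 had -0.08, and none of these passed.

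Of the transmembrane collagens only Col23a1 was tested. Its 3 probe sets had -0.27, -0.09 and -0.48, and the groups lay apart in the last, at adjusted p = 0.109, which passed with the spike-signal split as a block. Col7a1, the chain of the anchoring fibrils below epithelia, had -0.20, and Col8a1, a short-chain network former, had -0.17 and -0.10. None of these passed.

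Of the 42 collagen genes, 15 had no probe set bright enough for a test. They were Col2a1, Col4a4, Col6a4, Col6a5, Col8a2, Col9a2, Col9a3, Col10a1, Col13a1, Col17a1, Col19a1, Col22a1, Col24a1, Col25a1 and Col26a1. Their 26 probe sets read from 0.4 to 40.7 on single arrays, and none of these probe sets was among the brightest 60%. Several of them, such as Col2a1, Col9a2 and Col10a1, are best known from cartilage. Acan, Sox9, Matn1 and Comp, markers of chondrocytes, summed to an intensity of 110 to 151 on control and 109 to 175 on treated arrays. Of their 3 tested members 0 changed, against 10.5% of all genes tested.

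Some collagen genes lie next to each other with no other protein-coding gene between them. Col3a1 and Col5a2 are neighbours on chromosome 1, and their brightest probe sets had -0.29 and -0.22, neither of which passed. Col6a1 and Col6a2 are neighbours on chromosome 10, with -0.01 and 0.02. Col4a5 and Col4a6 are neighbours on the X chromosome, with -0.17 and -0.14. The differences between neighbours were not tested.

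Genes that act on collagens were set beside the chains, in lists of enzymes, partners and receptors. Of 19 tested genes of chain hydroxylation and folding, 5 fell and 0 rose, against 5.21% lower and 5.32% higher over all genes tested. The median difference of the list was 0.11, and 7 of 19 lay below 0, against 46.3% of all genes tested. The groups lay apart for 5 genes lower and 5 higher, against 13.7% and 16.5% over all genes tested. P4ha1 and P4ha2, catalytic subunits of the prolyl 4-hydroxylase that stabilises the triple helix, had -1.30 ± 0.07 (SE) and -0.72 ± 0.12 with adjusted p = 3.13e-06 and 0.00495. A further catalytic subunit, P4ha3, had 0.20 at a dim signal and did not pass. The prolyl 3-hydroxylases P3h1, P3h2 and P3h3 had 0.23, 0.36 and 0.37 and did not pass. P4ha1 went from 898 ± 14.8 to 356 ± 16.3 (SD, n = 3).

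The lysyl hydroxylases Plod1 and Plod2, which prepare collagens for cross-linking, had -0.64 and -0.68 and both passed. Plod3, another lysyl hydroxylase, had 0.28, with treated arrays wholly above the controls, and did not pass (adjusted p = 0.0526). A second probe set of Plod1 had 0.10, and Plod1 did not pass with the mean of its probe sets. Mia3, needed to load the bulky procollagen into transport carriers, also fell and had -0.39. It did not pass without an intensity trend. Serpinh1, the collagen chaperone HSP47, had 0.09 (adjusted p = 0.635), and P4hb, the partner subunit of the prolyl hydroxylase, had 0.00.

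In processing and cross-linking, 1 of 10 tested genes fell and 1 rose, against 5.21% lower and 5.32% higher over all genes tested. The list median was -0.05. Tgm2, a transglutaminase, fell from 364 ± 43.2 to 155 ± 25.5 (SD, n = 3), a log2 difference of -1.16 ± 0.12 (SE). Loxl1, a lysyl oxidase that cross-links matrix fibres, rose by 0.41 (adjusted p = 0.00665), a call lost without an intensity trend. Lox itself had -0.13 (adjusted p = 0.549), and Bmp1, which cuts off the C-propeptide, had 0.19 (adjusted p = 0.225).

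Among proteins that bind fibrils, 4 of 16 fell and 1 rose, against 5.21% lower and 5.32% higher over all genes tested. The list median was -0.15. Dpt, which encodes dermatopontin, fell from 1316 ± 45.5 to 634 ± 32.1 (SD, n = 3), at -1.04 ± 0.07 (SE). The proteoglycans Lum and Dcn, which coat fibrils and affect their spacing, had -0.59 and -0.50, and the matricellular gene Postn had -0.48, and these fell. A second probe set of Dcn had -0.10. The call of Dcn was lost in 5 of 18 alternatives, which were leaving out control replicate 2 or resveratrol replicates 1 or 2, no intensity trend and the mean of its probe sets. That of Postn was lost in 6, which were leaving out control replicate 2 or resveratrol replicates 2 or 3, no filter, no intensity trend and the replicate number as a block. The list had 2 calls in all without control replicate 2 and 3 without each of the treated arrays. Thbs1 rose by 0.44, a call lost in 8 of 18 alternatives, among them leaving out control replicates 1 or 2 or resveratrol replicates 1 or 3.

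Of the basement membrane partners, laminins, nidogens and heparan sulfate proteoglycans among them, 1 of 15 fell and 0 rose. Over all genes tested 5.21% fell and 5.32% rose. Differences lay below 0 for 12 of the 15, against 46.3% of all genes tested, with a median of -0.19. The gene that fell was Smoc1, a calcium-binding matrix protein, at -0.74 (adjusted p = 0.0222). Its call was lost in 6 of 18 alternatives. These were leaving out each of the control arrays or resveratrol replicate 2, no filter and no intensity trend. Lamb1 and Lamc1, laminin chains found in most basement membranes, had -0.23 and -0.19, did not pass and had groups that lay apart. Of the receptors 1 of 10 rose, against 5.32% of all genes tested. This was Ddr1, a collagen-binding receptor kinase, at 0.48 (adjusted p = 0.0177). It has 7 other tested probe sets, of which 1 passed in the same direction and 1 had the opposite sign. Its call was lost in 6 of 17 alternatives. These were leaving out control replicate 2 or resveratrol replicates 1 or 2, no filter, no intensity trend and the mean of its probe sets. Itgb1, the shared beta chain of the collagen-binding integrins, had -0.04.

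Of genes for the breakdown of collagen, protease inhibitors among them, 4 of 15 tested fell and 1 rose. The shares over all genes tested were 5.21% lower and 5.32% higher. The list median was -0.11. Timp3, an inhibitor of matrix proteases, had -0.98, and Fap, a serine protease of activated fibroblasts, had -0.88. Mmp13, a collagenase, had -0.78, and Mmp9, a gelatinase, had -0.53, and all 4 of these genes fell. Mmp13 was dim, at 42.4 ± 11.8 in control and 17.6 ± 3.10 in resveratrol cultures (SD, n = 3). Ctsk, a lysosomal collagenase, rose by 0.38. The list had 3 calls without control replicate 3, 3 without resveratrol replicates 1 or 2 and 2 without resveratrol replicate 3. Mmp2 and Mmp14 had 0.18 and 0.06 and did not pass. The calls of Fap, Mmp13 and Ctsk were each lost in 5 alternatives, and those of Timp3 and Mmp9 in 0 of 18.

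**Figure D5:**
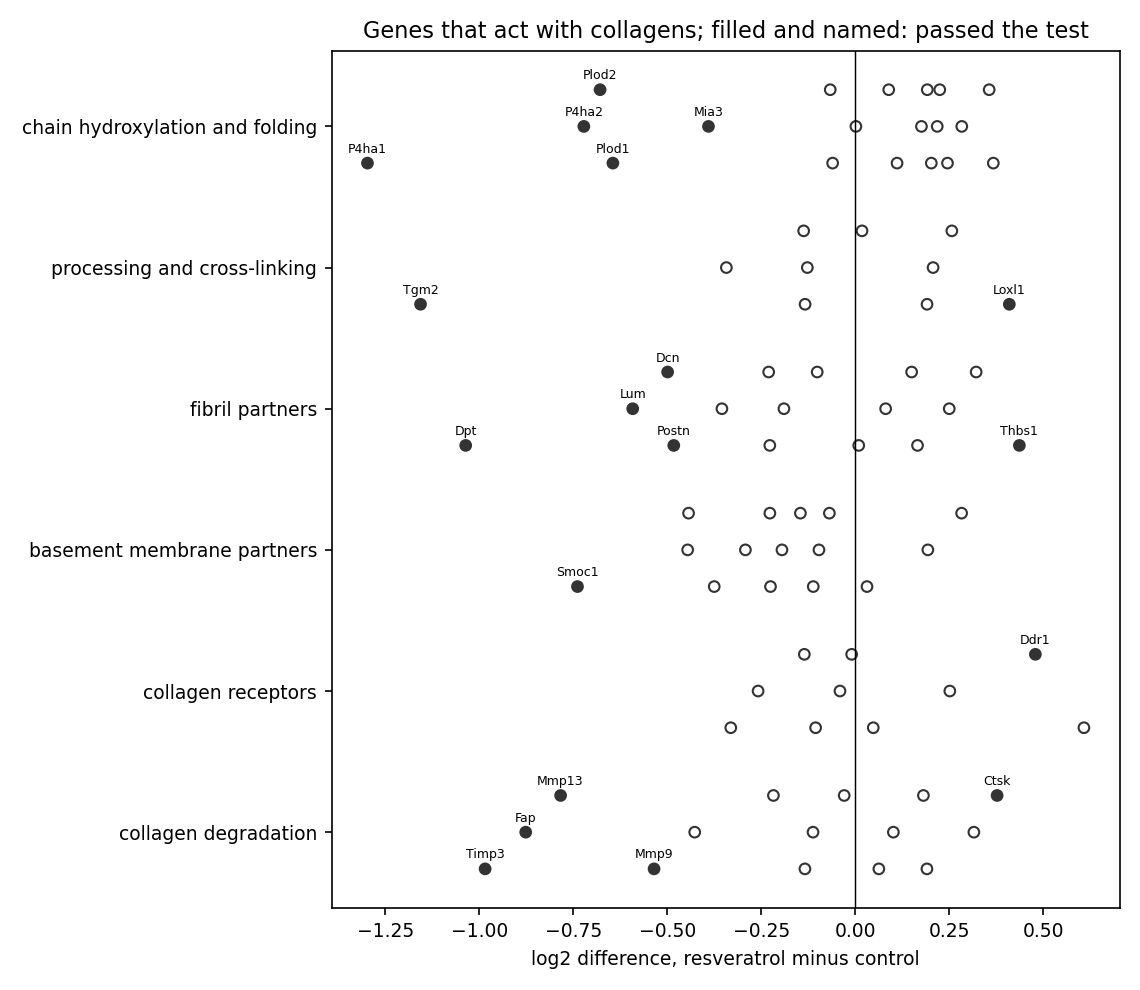
The log2 difference (resveratrol minus control) of every tested gene of the 6 lists is plotted, by brightest probe set, with filled and named points for those that passed. The hydroxylases P4ha1, P4ha2, Plod1 and Plod2 lie between -1.30 and -0.64, apart from the other genes of their list, which lie near or above 0 except for Mia3. The hydroxylases P4ha3 and Plod3 lie above 0, at 0.20 and 0.28.

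Of the adipocyte markers Lep, and of the preadipocyte or fibroblast markers Cd34, was too dim to be tested. Over all genes tested 5.21% fell, 5.32% rose and 10.5% changed in either direction. Among 4 tested adipocyte markers 2 fell, Slc2a4 by 1.19 and Cidec by 0.57. Fabp4 and Adipoq had -0.22 and -0.31 and did not pass. The summed intensity of that list was 19661 to 30314 on control and 18376 to 22926 on treated arrays. Among 4 tested preadipocyte or fibroblast markers 1 rose, the surface protein Thy1, at 0.40 (adjusted p = 0.0078). Dlk1, Pdgfra and Fn1 had 0.08, -0.07 and -0.23 and did not pass. The treated arrays of Fn1 lay wholly below its control arrays. The summed intensity of this list was 8683 to 9048 on control and 8338 to 9491 on treated arrays. Acta2, Tagln, Cnn1 and Actg2, markers of myofibroblasts, summed to 4305 to 4946 on control and 4675 to 5419 on treated arrays, most of it from Acta2. Of the 3 tested 0 passed. Acta2 and Actg2 had 0.13 and -0.05. Tagln had -0.65 (adjusted p = 0.0668), with treated arrays wholly below the controls. In these bulk samples fewer cells of a type and less RNA per cell cannot be told apart, and the part of cell composition in the collagen falls was not tested. Macrophage, endothelial and keratinocyte markers summed to at most 309, 101 and 89.5 on any array. Of their 7 tested members 0 changed, against 10.5% of all genes tested.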

How the data were processed

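Biotin-labelled RNA of 6 cultures was hybridised to Affymetrix arrays, per the labels' protocols, and the deposited table holds 1 linear intensity for each probe set and array, as read from its values. For the step from probes to probe sets, the tool was not given in the sources used here. The mean of each column, with 2% of the values cut from either end, is 150, as 1 scaling factor per array gives. Differences between arrays that depend on signal level remain in such values. The number of arrays limits the precision.

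Probe sets that name 1 gene numbered 34945, and 64 control probe sets did not enter the test. The 82 members matched RefSeq (GRCm38.p6) by Entrez number, with 0 symbols changed. Values entered limma 3.58.1 in R 4.3.3 as log2(intensity + 16), for the brightest 60% by mean log2 value (lmFit and eBayes with an intensity trend, 2-sided, 95% intervals), and the fit was tested on simulated data. The alternatives changed the normalization (quantile), the offset (1 or 64), the filter (none, or the brightest 40%) or the variance model (no trend, robust, array weights). Others added the replicate number or the spike-signal split as a block, dropped probe sets with the suffix x or s, averaged each gene's probe sets, or left out an array.

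Values of every array were given for members past the threshold and for the 3 brightest tested probe sets of each class, and up to 4 changed genes of each list were to be named. Col1a1, Col5a2, Col11a2, Col4a5, Col12a1, the fifth changed gene of 3 lists and list genes that did not pass were added after their values were seen. Members, lists and alternatives were chosen with earlier results of these data known. List genes without a probe set that names them alone were not analysed here. Figures were drawn with matplotlib 3.10.9.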

Additional observations from a re-analysis of the deposited data

How the results depend on the processing

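The median difference of the collagen genes was below 0 in all 18 alternatives, from -0.248 to -0.154 when an array was left out. No intensity trend, the robust variance model and the replicate block leave it at -0.174 by construction, so they do not check its sign. The counts of calls varied between the alternatives. Against 2209 probe sets, 7 collagen probe sets, 4 collagen genes and 19 genes of the lists, no filter gave 1396, 2, 1 and 13, and no intensity trend gave 861, 2, 1 and 10. Leaving out an array gave 1131 to 1952, 2 to 5, 1 to 3 and 13 to 18. Averaging the probe sets of each gene gave 7 collagen genes. With the replicate number as a block there were 1894 probe sets, 5 collagen probe sets, 3 collagen genes and 18 list genes, which is a check only. Deviations of same-numbered arrays from their group means had correlations of -0.061, -0.016 and 0.093. The labels do not say whether the numbers pair samples, and 3 arrays per group are too few to settle it. With the spike-signal split as a block the counts were 1896, 6, 3 and 19. Col18a1 probe set 1 and Col3a1 probe set 2 were the collagen calls shared by all 6 fits that left out an array. No filter tests more probe sets, which makes the adjustment stricter, and leaving out an array leaves fewer samples. The cause of the loss without a trend was not tested. Signal over background limits the 37 collagen probe sets that were not tested.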

Other observations

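Among the 37 collagen probe sets too dim to be tested, the groups did not overlap for 5, higher in treated cultures for 4 and lower for 1. Over all 18015 probe sets too dim to be tested, the groups lay apart for 5.21% higher and 5.1% lower, and no test was made of these shares. The largest difference was that of Col22a1, a fibril-associated collagen known from tissue junctions, at 18.4, 4.4 and 8.5 in control and 40.7, 26.3 and 28.8 in resveratrol cultures. All 3 treated arrays lay above all controls, and the difference was 0.88 with adjusted p = 0.0951 in the fit with no filter. Its other 2 probe sets had overlapping groups. Col8a2, a short-chain network former, was the lower of the 5, at 14.4, 10.1 and 11.6 against 6.4, 6.0 and 5.7, with -0.34 and adjusted p = 0.219 in that fit.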
